A study of Mus musculus with 6 samples.

Results

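The MiT/TFE family comprises the 4 transcription factor genes Mitf, Tfe3, Tfeb and Tfec. Its members were taken as all probe sets annotated to exactly 1 of these genes, without regard to their values, which gave 4 of 18193 measured genes and 5 of the 45037 probe sets tested, 2 for Mitf and 1 each for Tfe3, Tfeb and Tfec. The probe sets were measured in RAW264.7, a mouse macrophage line from which osteoclast-like cells form when RANKL, the osteoclast-inducing cytokine, is added. Cells were kept for 24 hours in low-sodium medium at 120 mmol/l (3 arrays) or in normal-sodium medium at 137 mmol/l (3 arrays), and the osmolality of the low-sodium medium was kept at 290 mOsm/l by adding mannitol. The labels count 4 biological replicates per medium, of which 3 were analysed here. RANKL (30 ng/ml) and M-CSF (10 ng/ml) are named next to the low-sodium medium in wording that does not settle whether the normal-sodium cultures also received them, so sodium and the cytokines cannot be told apart from the labels. All cultures came from this single line.

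MiT/TFE proteins are basic helix-loop-helix leucine zipper factors that bind DNA as dimers with themselves or with each other. Under nutrients TFEB, TFE3 and some MITF isoforms are recruited to the lysosome by Rag GTPases, phosphorylated by mTORC1 and held in the cytoplasm by 14-3-3 proteins, and on release they enter the nucleus and switch on lysosomal and autophagy genes that carry an E-box known as the CLEAR element. In the osteoclast lineage MITF and TFE3 act with the ETS factor PU.1 on genes such as Acp5 and Ctsk, mice with certain dominant Mitf alleles have osteopetrosis, and Tfec is expressed mainly in macrophages. Since much of this control acts on the protein and its location, an array reads only the mRNA side of it.

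The arrays carry macrophage RNA by the markers examined. All 8 macrophage markers were at least as bright as the median probe set, whereas 0 of 4 lymphocyte markers, 1 of 5 fibroblast markers and 2 of 6 melanocyte markers were. The summed intensity of the macrophage markers spanned 84918 to 103295 in low sodium and 79027 to 92053 in normal sodium, so the sums overlapped. Of the 8, 2 rose in the batch-term limma fit described below, where 3.09% of all genes rose. These were Adgre1 by 0.96 ± 0.10 without overlap of the media and Fcgr3 by 0.90 ± 0.10 with overlap (log2 and SE, batch-term adjusted p = 0.00394 and 0.00386). Without low-sodium replicate 3 Fcgr3 differed by 0.59, against 1.03 in replicates 1 and 2 and 0.64 in replicate 3. The summed intensity of 6 osteoclast markers spanned 5601 to 7270 in low sodium and 718 to 1951 in normal sodium, with Calcr, the calcitonin receptor gene, dim in both. On average 5 of the 6 were higher in low sodium, but not alike. On low-sodium replicate 3 Atp6v0d2 reached 6156, while Ctsk and Dcstamp, at 352 and 467, were below low-sodium replicates 1 and 2. Oscar differed by -0.17, a sign that 1 of its 2 probe sets had, and Acp5 by -0.04 in replicates 1 and 2 (log2). In bulk RNA more cells of a type and more RNA per cell cannot be told apart, and the part of osteoclast or macrophage content in the results below was not tested. The replicate 3 arrays of both media stood apart, since their spiked labelling controls averaged a log2 intensity of 8.50 in low sodium and 8.54 in normal sodium, whereas those of the other 4 arrays averaged 10.19 to 10.45. For the family, and for list genes where it matters, differences are therefore also given apart for replicate 3 and for the other pair of replicates. Differences given without a single array are of plain group means with no batch term. Leaving out the replicate 3 array of a medium therefore sets its other arrays against a group that keeps its own replicate 3. The median difference of all probe sets was -0.02 over all arrays and -0.11 within replicate 3 (log2, low minus normal sodium).

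Differences were tested with limma across all 45037 probe sets, first without and then with a batch term that separates replicate 3 from replicates 1 and 2. The fit without the term, named the plain fit below, called 0.00% of probe sets at a Benjamini-Hochberg adjusted p under 0.05 (0 of 45037, against 6.37% at an unadjusted p under 0.05), so 0 of the 5 MiT/TFE probe sets passed it, 1 of them at an unadjusted p under 0.05. The fit with the batch term and a trended variance prior, called the batch-term fit below, was taken up in earlier work on these arrays after its number of calls had been seen, and it called 4.09% of probe sets, 2.07% higher and 2.01% lower in low sodium. It called 1 of the 5, a Mitf probe set that was higher. With the batch term and a constant prior 0.00% of probe sets were called.

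Mitf, the master regulator of melanocytes and an essential factor of osteoclasts, was higher in low sodium by both of its probe sets. The brighter one, 1455214_at, had intensities of 3319, 3283 and 3829 in low sodium and 2607, 2217.5 and 2096 in normal sodium. All 3 low-sodium arrays lay above all 3 normal-sodium arrays, and the closest pair was separated by a log2 value of 0.33. Groups that did not overlap with low sodium higher made up 6.97% of all probe sets. On the log2(intensity + 1) scale it averaged 11.76 ± 0.12 in low sodium and 11.17 ± 0.16 in normal sodium (SD, n = 3 each), a 1.51-fold difference. The log2 difference of 0.59 ± 0.21 (SE) did not pass the plain limma fit (adjusted p = 0.767, unadjusted p = 0.0318), and an exact two-sided permutation test gave p = 0.1, the smallest that 3 against 3 arrays allow. It rose in the batch-term fit (SE 0.11, adjusted p = 0.0247), and also when replicate 3 was left out and the prior was trended, where the difference was 0.46 (adjusted p = 0.0165) and 8.25% of probe sets were called. That setting was added after the data were seen. With the constant prior the same 4 arrays gave an adjusted p of 0.377 and 0 calls among all probe sets. Its size exceeded that of 71.8% of all probe sets.

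The dimmer Mitf probe set, 1422025_at, had intensities of 353, 244 and 663 in low sodium and 234, 187 and 366 in normal sodium. Here the groups overlapped. The replicate 3 arrays of both media were the highest of their group and normal-sodium replicate 3 exceeded low-sodium replicates 1 and 2. It averaged 8.59 ± 0.73 in low sodium and 7.98 ± 0.49 in normal sodium (log2, SD, n = 3 each). The log2 difference of 0.61 ± 0.46 (SE) passed neither the plain fit (adjusted p = 0.878) nor the batch-term fit (adjusted p = 0.146). Within replicate numbers, which were not taken as pairs, the 2 probe sets had the same sign. The low-sodium array exceeded the normal-sodium array of the same number by 0.59, 0.39 and 0.85 for 1422025_at and by 0.35, 0.57 and 0.87 for 1455214_at in replicates 1, 2 and 3. The shares of all probe sets that were higher in all 3 numbers and lower in all 3 were 17.4% and 18.7%. Averaged over both probe sets, Mitf differed by 0.60 ± 0.30 (SE, limma adjusted p = 0.806) without overlap of the groups. The levels themselves tracked each other less closely across the 6 arrays (Pearson r = 0.57, given as a description). Replicate 3 differed from the mean of replicates 1 and 2 by 1.17 in low sodium and 0.81 in normal sodium for 1422025_at, and by 0.21 in low sodium and -0.20 in normal sodium for 1455214_at.

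**Figure D1:**
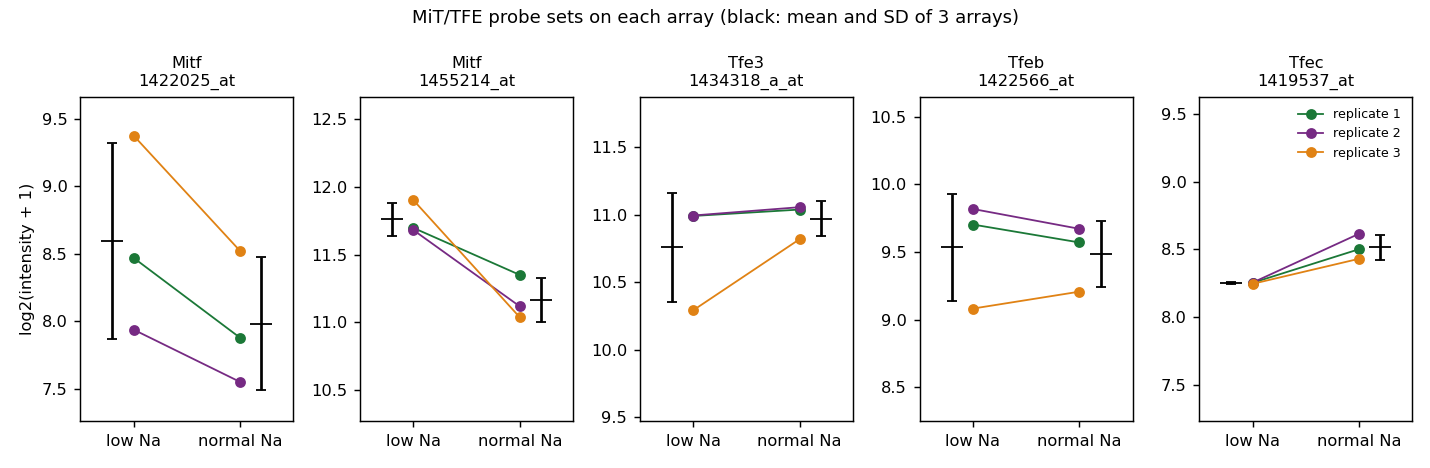
Log2(intensity + 1) of the 5 MiT/TFE probe sets on each array, low sodium left and normal sodium right, with lines joining arrays of the same replicate number and black bars giving the mean and SD of 3 arrays. Every panel spans the same log2 range. Both Mitf probe sets slope down from low to normal sodium in all 3 replicates, and the low-sodium Tfec values coincide at 8.25.

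Mitf is read from several alternative starts in different cell types, and neither probe set is tied to one of them by the annotation used here. RefSeq (GRCm38.p6) lists 3 start windows for Mitf, all on the plus strand of chromosome 6, and their 250 bases up to the base before the start are shown because the rise cannot be assigned to any of them. The only letters marked, in capitals, are TGACGTCA (searched on both strands), the palindromic cAMP response element, which stands in the third window at 153 bases before the start. It occurs in 1.79% of all 32851 windows of 300 bases.
Mitf start 1, chr6:97806808-97807057, plus strand: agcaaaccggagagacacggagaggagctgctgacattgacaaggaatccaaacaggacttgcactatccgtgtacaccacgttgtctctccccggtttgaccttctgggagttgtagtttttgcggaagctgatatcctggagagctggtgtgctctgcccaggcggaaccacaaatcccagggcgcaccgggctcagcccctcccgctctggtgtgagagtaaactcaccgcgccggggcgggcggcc
Mitf start 2, chr6:97929567-97929816, plus strand: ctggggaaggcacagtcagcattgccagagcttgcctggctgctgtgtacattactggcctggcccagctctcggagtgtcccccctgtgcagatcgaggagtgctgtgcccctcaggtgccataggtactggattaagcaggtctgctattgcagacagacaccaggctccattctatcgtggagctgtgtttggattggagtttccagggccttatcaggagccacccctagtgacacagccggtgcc
Mitf start 3, chr6:97991533-97991782, plus strand: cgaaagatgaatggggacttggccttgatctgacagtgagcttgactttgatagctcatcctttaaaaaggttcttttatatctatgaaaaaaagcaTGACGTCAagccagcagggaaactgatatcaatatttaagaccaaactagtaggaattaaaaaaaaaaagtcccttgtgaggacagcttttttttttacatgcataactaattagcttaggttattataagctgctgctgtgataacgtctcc

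Tfec, the family member with the most restricted expression, was lower in low sodium. Its probe set 1419537_at had intensities of 304, 304 and 303 in low sodium and 362, 392 and 344 in normal sodium. The 3 low-sodium values were nearly identical, and all of them lay below the lowest normal-sodium value by at least 0.18 on the log2 scale. Groups that did not overlap with low sodium lower made up 7.88% of all probe sets. Tfec averaged 8.25 ± 0.0048 in low sodium and 8.52 ± 0.094 in normal sodium (log2, SD, n = 3 each), 0.832-fold. The log2 difference of -0.27 ± 0.19 (SE) passed neither the plain fit (adjusted p = 0.873) nor the batch-term fit (adjusted p = 0.362), and the exact permutation p was 0.1. The differences were -0.25, -0.36 and -0.19 in replicates 1, 2 and 3.

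Tfe3, which shares its osteoclast role with Mitf, differed little between the media in replicates 1 and 2. Its probe set 1434318_a_at had intensities of 2032, 2037 and 1252 in low sodium and 2100.0, 2126 and 1804 in normal sodium. The low-sodium replicate 3 array was the lowest of all 6, and the other 5 lay close together. The means were 10.76 ± 0.40 in low sodium and 10.97 ± 0.13 in normal sodium (log2, SD, n = 3 each). The difference of -0.21 ± 0.28 (SE, limma adjusted p = 0.933) consisted of -0.05 and -0.06 in replicates 1 and 2 and -0.53 in replicate 3, and it was 0.02 without that low-sodium array. The batch-term fit did not call it (adjusted p = 0.383).

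Tfeb, the regulator after which lysosomal biogenesis is usually described, did not separate by medium. Its probe set 1422566_at had intensities of 833, 902 and 541 in low sodium and 759.5, 815 and 589.9 in normal sodium. In both media replicate 3 was lowest, by 0.68 below the mean of replicates 1 and 2 in low sodium and by 0.41 in normal sodium on the log2 scale. It averaged 9.53 ± 0.40 in low sodium and 9.48 ± 0.24 in normal sodium (log2, SD, n = 3 each). The difference of 0.05 ± 0.29 (SE) passed neither fit (adjusted p = 0.989 in the plain limma fit, 0.874 in the batch-term fit), and its sign differed between replicates 1 and 2 (0.13 and 0.15) and replicate 3 (-0.13).

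**Figure D2:**
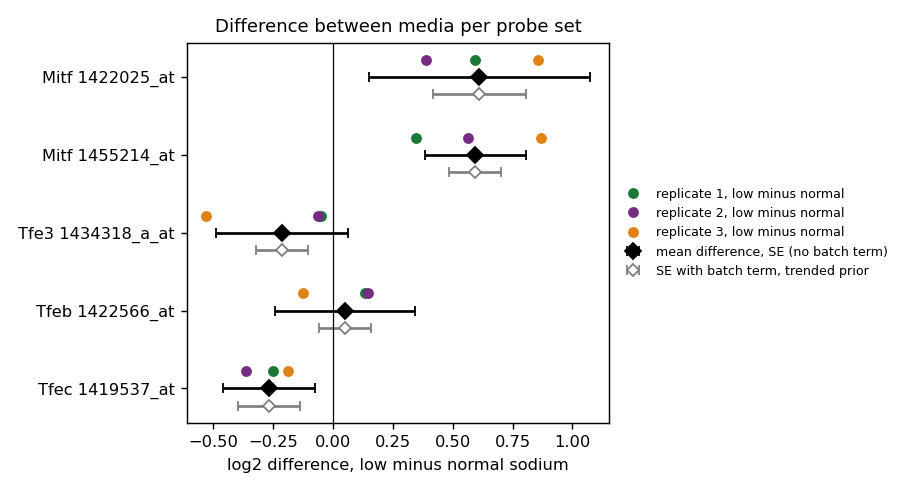
Log2 difference, low minus normal sodium, for each MiT/TFE probe set. Coloured points are the 3 replicate numbers, black diamonds the mean with the SE of the fit without a batch term, and open grey diamonds the same mean with the SE of the batch-term fit. All replicate points of Mitf lie right of 0, those of Tfec and Tfe3 left of 0, and those of Tfeb on both sides.

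Because the 4 factors can pair with each other, their relative change was also compared as a log2 ratio within each array, using the brightest probe set of each gene. The ratio of Mitf to Tfec was higher in low sodium by 0.86, that of Mitf to Tfe3 by 0.81 and that of Mitf to Tfeb by 0.54, and the ratio of Tfe3 to Tfeb differed by -0.26. In each of these 4 ratios the 3 low-sodium arrays did not overlap with the 3 normal-sodium arrays. All ratios with Mitf share probe set 1455214_at, which did not overlap by itself, so they are not independent. The dimmer Mitf probe set, whose groups overlapped, was not used. How often ratios of other probe sets separate was not computed, so the number of separated ratios has no share to stand beside. The ratio of Tfeb to Tfec differed by 0.32 and that of Tfe3 to Tfec by 0.05, and both overlapped. Over the 6 pairs the 4 separated ratios had an exact two-sided permutation p of 0.1 each, or 0.15 after Benjamini-Hochberg adjustment, so the design could not bring any of them under 0.05. A ratio shows unequal change of the 2 probe sets, and does not say which of them stayed constant.

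The genes whose pattern came closest to that of each factor were sought among 10399 genes by the Pearson correlation over the 6 arrays after removing the mean of each replicate number. For Mitf these were Cyba, a subunit of the phagocyte NADPH oxidase, Wsb2 and Ccdc50, which differed by 0.24, 0.48 and 0.26 (log2, low minus normal sodium). For Tfec they were Zdhhc14, Rsl1d1 and the fumarase gene Fh1, at -0.54, -0.21 and -0.36. For Tfe3 they were Slc43a3, Aak1 and the phosphatase gene Dusp10, at -0.28, -0.21 and -0.46, and for Tfeb Fbxw11, Klf3 and Fbrs, at 0.04, 0.20 and 0.24. The measure rests on 3 differences per gene and is a loose description, as 244 genes for Mitf, 127 for Tfec, 213 for Tfe3 and 51 for Tfeb exceeded r = 0.99, the named genes among them.

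Of the genes that control MiT/TFE proteins, few passed a test. Of 31 measured genes, which include those for Rag GTPases, the Ragulator complex, folliculin and its partners, mTORC1, calcineurin and 14-3-3 proteins, 2 rose and 0 fell in the batch-term fit, in which 6.01% of all 18193 genes were called, 3.09% higher and 2.92% lower (each gene by its brightest probe set). In the plain fit, which called 0.00% of genes, 0 passed, and 1 had an unadjusted p under 0.05, as 6.39% of all genes did. Ppp3ca, which encodes a catalytic subunit of calcineurin, the phosphatase that acts on TFEB, had intensities of 1846, 1915 and 1791 in low sodium and 1322, 1347 and 1276 in normal sodium. It rose by 0.49 ± 0.08 on the log2 scale (SE and adjusted p = 0.0136 from the batch-term limma fit), and the difference was 0.49 both in replicates 1 and 2 and in replicate 3. Ppp3cb, the gene of another catalytic subunit, lay the other way at -0.22 with 5 of 5 probe sets of the same sign, and its low-sodium arrays were all below the normal-sodium arrays, but it did not pass (batch-term adjusted p = 0.192). Fnip1, a folliculin partner needed for the Rag-dependent control of TFE3 and TFEB, rose by 0.48 ± 0.10 (batch-term adjusted p = 0.0444). Fnip2 differed by 0.85 and the mTORC1 scaffold gene Rptor by 0.68 without passing, with 1.76 and 1.37 in replicate 3 against 0.39 and 0.33 in replicates 1 and 2. The folliculin gene Flcn differed by -0.22, Mtor by 0.09, and the lysosomal calcium channel gene Mcoln1, whose current activates calcineurin, by 0.08. For Mtor and for Mcoln1, 2 of 3 probe sets had that sign. The median of the list was 0.08, and that of all genes -0.01.

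Among partners and modifiers of MITF, 2 of 16 measured genes rose and 0 fell in the batch-term fit, where 3.09% of all genes rose and 2.92% fell. Fos, which joins MITF and PU.1 in the osteoclast programme, had intensities of 3669, 3793 and 3965 in low sodium and 2737, 2572 and 2091 in normal sodium and rose by 0.64 ± 0.10, and the beta-catenin gene Ctnnb1 rose by 0.42 ± 0.09 (batch-term adjusted p = 0.0148 and 0.0407). Spi1, which encodes PU.1, differed by 0.01, and Nfatc1, the osteoclast master factor, by -0.23 (-0.02 in replicates 1 and 2, -0.65 in replicate 3). The MITF-activating kinase genes Mapk14 and Map2k6 differed by -0.13 and -1.32, Map2k6 and Lef1 (-1.26) being dim in both media. The list median was -0.11.

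Osteoclast effector genes, a list that holds known targets of MITF or TFE3 (Acp5, Ctsk, Oscar, Clcn7, Ostm1, Atp6v0d2 and Gpnmb among them) beside other osteoclast genes, rose in 8 of 14 and fell in 1 in the batch-term fit. Across all genes 3.09% rose and 2.92% fell in it. In this list and every other list described here 0 genes passed the plain fit, and 4 of the 14 had an unadjusted p under 0.05 in it, as 6.39% of all genes did. Atp6v0d2, a V-ATPase subunit that osteoclast precursors need to fuse, had intensities of 1639, 1811 and 6156 in low sodium and 329, 302 and 152 in normal sodium, 10.6-fold. Tcirg1, the osteoclast subunit of the same pump, had 5148, 5574 and 6598 in low sodium and 3313, 3095 and 3232 in normal sodium, 1.79-fold. In both genes the media did not overlap, and they rose by 3.41 ± 0.50 and 0.84 ± 0.09 (batch-term adjusted p = 0.0108 and 0.00343). Atp6v0d2 differed by 2.45 in replicates 1 and 2 and by 5.33 in replicate 3. Clcn7, the lysosomal chloride transporter gene, and Gpnmb, the gene of a membrane glycoprotein of osteoclasts, rose by 0.46 ± 0.10 and 0.52 ± 0.11, but 1 of the 3 Clcn7 probe sets went the other way. Ctsk, the gene of the collagen-degrading protease cathepsin K, and Dcstamp, a gene of cell fusion, rose by 1.15 ± 0.20 and 1.52 ± 0.15, and in both the media overlapped. Ctsk differed by 1.501 in replicates 1 and 2 and by 0.44 in replicate 3, and leaving out single arrays gave 0.68 without low-sodium replicate 1, 0.73 without low-sodium replicate 2, 2.03 without low-sodium replicate 3 and 0.62 without normal-sodium replicate 3. The kinase gene Src rose by 2.27 ± 0.42, at 1.62 in replicates 1 and 2 and 3.56 in replicate 3, and differed by 1.25 without normal-sodium replicate 3. The gelatinase gene Mmp9 rose by 1.05 ± 0.19 with overlap of the media. Among direct MITF targets Acp5, the gene of the phosphatase TRAP, differed by 0.70 without passing, at -0.04 in replicates 1 and 2 and 2.17 in replicate 3. The immune receptor gene Oscar differed by -0.17 without passing, and 1 of its 2 probe sets had that sign. Ostm1, the partner subunit of Clcn7, differed by 0.31 without passing. Car2, the gene of a carbonic anhydrase that supplies protons for resorption, had 562, 515 and 1419 in low sodium and 5762, 6168 and 5844 in normal sodium and fell by 2.99 (batch-term adjusted p = 0.00157), with -3.47 in replicates 1 and 2 and -2.04 in replicate 3. Over the 14 genes the median was 0.62, at 0.57 in replicates 1 and 2 and 0.74 in replicate 3. All 6 osteoclast markers summed above are members of this list, so their sums are no separate measurement. Of the 8 macrophage markers, Adgre1 and Fcgr3 rose beside it in the batch-term fit (0.96 and 0.90). Without passing, Mrc1 differed by 0.97, Cd68 by 0.27, Itgam by 0.10, Spi1 and Lyz2 by 0.01 each and Csf1r by -0.16. Itgam and Mrc1 differed by -0.62 and -0.23 in replicate 3. The part of macrophage content in these results was not tested.

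The CLEAR network, the set of lysosomal genes bound by TFEB and TFE3, was examined in 3 lists. Proton pump genes were higher in low sodium in 11 of 11, where 49.2% of all genes were. In the batch-term fit 6 of them rose and 0 fell, where 3.09% of all genes rose and 2.92% fell. In 7 the media did not overlap, where 8.44% of all genes had low sodium higher without overlap. Atp6v0a1 had intensities of 1652, 1717 and 1194 in low sodium and 747, 866 and 713 in normal sodium and rose by 0.96 ± 0.11 (batch-term adjusted p = 0.00476), with 1 of its 4 probe sets going the other way. Atp6v1e1 rose by 0.56 ± 0.09, Atp6ap1 by 0.40 and Atp6v1h by 0.40, the last with 1 of 3 probe sets opposite. The list median was 0.40, at 0.29 in replicates 1 and 2 and 0.53 in replicate 3.

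Lysosomal hydrolase and membrane genes were higher in low sodium in 22 of 24, where 49.2% of all genes were, and their median difference was 0.25. In 19 of them the low-sodium array was higher in all 3 replicate numbers, where 20.0% of all genes were, and in 2 it was lower in all 3, where 20.7% of all genes were. Replicate 3 alone had a list median of 0.44, and the other pair of replicates 0.21. In the batch-term fit 5 rose and 1 fell, where 3.09% of all genes rose and 2.92% fell. Ctsd, the gene of the aspartic protease cathepsin D, had intensities of 25659, 26196 and 29535 in low sodium and 21613, 21105 and 19903 in normal sodium and rose by 0.38 ± 0.07. Naglu, a heparan sulfate hydrolase gene, rose by 0.57 ± 0.12, and differed by 0.27 without low-sodium replicate 3. Ctsf fell by 0.59 with overlap of the media, at -0.65 in replicates 1 and 2 and -0.47 in replicate 3, and 1 of its 2 probe sets had that sign. Leaving out single arrays, with no batch term, gave -0.33 without low-sodium replicate 2, -1.03 without low-sodium replicate 3 and -0.20 without normal-sodium replicate 3. Galns, Gla and the cholesterol exporter gene Npc1 differed by 0.69, 0.51 and 0.48 without passing (batch-term adjusted p = 0.0513, 0.0515 and 0.0515). They are among 9 of the 24 genes with low sodium higher without overlap, where 8.44% of all genes were. In 1 of the 24 low sodium was lower without overlap, where 9.07% of all genes were. Of 17 autophagy genes of the network, 1 rose and 1 fell, with a median of 0.07. The selective autophagy receptor gene Sqstm1, at 14811, 15047 and 12993 in low sodium and 8606, 8145 and 5722 in normal sodium, rose by 0.95 ± 0.08 (batch-term adjusted p = 0.0018), Uvrag fell by 0.46, and the autophagosome gene Gabarap and the membrane tethering gene Vps8 differed by 0.20 and 0.34 without passing.

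**Figure D3:**
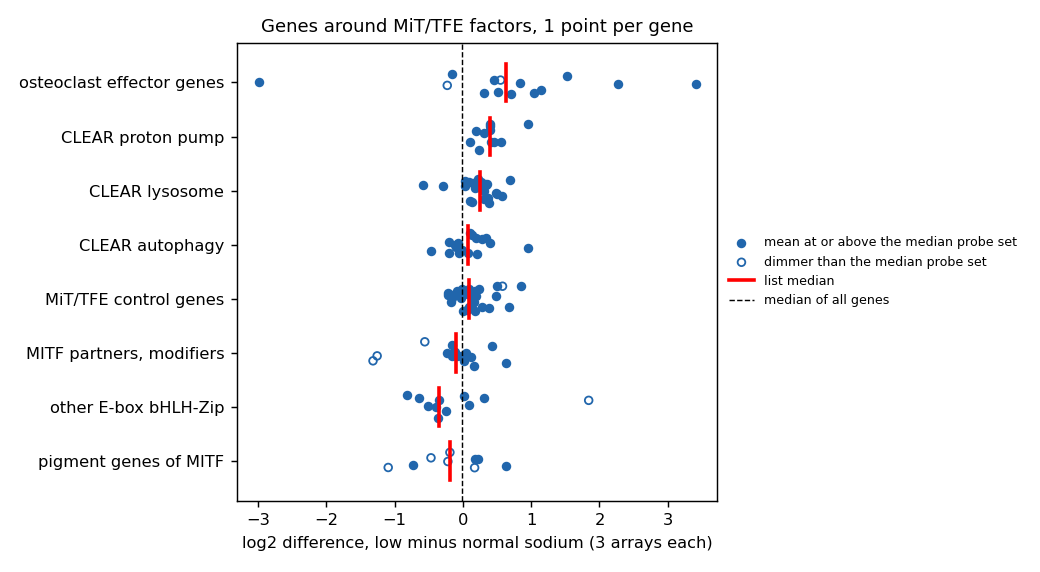
Log2 difference, low minus normal sodium, of every measured gene in 8 lists, 1 point per gene by its brightest probe set. Filled points are at least as bright as the median probe set, open points are dimmer, red bars are list medians and the dashed line is the median of all genes (-0.01). Osteoclast effector, proton pump and lysosome genes lie mostly right of the line.

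Promoters of these genes were searched for the E-boxes that MiT/TFE dimers are known to bind. The motifs were TCACGTG, the core of the CLEAR element, and TCATGTG, the M-box of pigment genes, each on both strands, in RefSeq windows from 250 bases before to 50 after a start. A palindromic TCACGTGA matches on both strands and is counted as 1 site. TCACGTG stood in a window of 55% of the 20 lysosome genes with one, of 50% of the 8 proton pump genes and of 25.9% of the 27 control genes, but of 7.69% of the 13 autophagy genes and 11.1% of the 9 osteoclast effector genes, and in 4.29% of all 27025 genes with a window. TCATGTG stood in 60% of the 5 pigment genes, 22.2% of the osteoclast effector genes and 4.31% of all genes. CLEAR network genes are known for TCACGTG and pigment genes for TCATGTG. High shares in those lists are therefore partly built into the choice of genes and are no separate result. The windows of the family itself (3 for Mitf, 3 for Tfeb, 2 for Tfe3 and 1 for Tfec) held neither. The stretches below show how the sites lie upstream of genes of these lists, with the matched letters in capitals and the sequence ending no later than the base before the start.
Ctsd, chr7:142387894-142388077, minus strand: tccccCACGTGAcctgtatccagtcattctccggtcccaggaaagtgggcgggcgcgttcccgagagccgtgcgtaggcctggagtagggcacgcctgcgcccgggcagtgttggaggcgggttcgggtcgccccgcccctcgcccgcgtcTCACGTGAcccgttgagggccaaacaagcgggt
Naglu, chr11:101069995-101070051, plus strand: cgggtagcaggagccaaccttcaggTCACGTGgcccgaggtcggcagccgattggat
Gla, chrX:134601168-134601255, minus strand: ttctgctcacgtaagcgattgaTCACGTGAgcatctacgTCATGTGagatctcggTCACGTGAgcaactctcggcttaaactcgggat
Lamp1, chr8:13159074-13159160, plus strand: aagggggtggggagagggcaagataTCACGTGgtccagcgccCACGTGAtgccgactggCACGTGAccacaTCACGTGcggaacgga
Mcoln1, chr8:3500422-3500505, plus strand: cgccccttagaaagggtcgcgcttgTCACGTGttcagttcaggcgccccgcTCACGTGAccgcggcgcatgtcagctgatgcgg
Atp6v1a, chr16:44139359-44139416, minus strand: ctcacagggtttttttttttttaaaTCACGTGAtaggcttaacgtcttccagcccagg
Fnip1, chr11:54438079-54438135, plus strand: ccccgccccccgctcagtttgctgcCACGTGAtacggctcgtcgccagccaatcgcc
Clcn7 start 1, chr17:25133350-25133390, plus strand: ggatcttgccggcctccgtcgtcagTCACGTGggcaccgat
Clcn7 start 2, chr17:25136564-25136620, plus strand: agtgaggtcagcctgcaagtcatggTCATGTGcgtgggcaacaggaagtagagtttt
Acp5, chr9:22130657-22130713, minus strand: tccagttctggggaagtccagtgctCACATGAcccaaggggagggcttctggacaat
Tyr, chr7:87493513-87493559, minus strand: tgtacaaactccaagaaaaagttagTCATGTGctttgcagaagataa

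Upstream of the start Lamp1, the gene of a major lysosomal membrane protein, carries 4 sites and Gla 3, counting its TCATGTG. Ctsd and Mcoln1 carry 2, and Naglu, Fnip1 and Atp6v1a carry 1. Lamp1, Gla and Mcoln1 differed by 0.17, 0.51 and 0.08 and did not pass. Ctsd (0.38), Naglu, Fnip1 and Atp6v1a (0.46 ± 0.06, and 0.28 without low-sodium replicate 3) rose in the batch-term fit. Atp6v1a differed by 0.42 in replicates 1 and 2 and by 0.53 in replicate 3. A relation between the number of sites and the difference was not tested. Over the CLEAR lists, the 16 genes with TCACGTG had a median difference of 0.18 and 15 of them were higher in low sodium, the 25 without it had a median of 0.26 with 17 higher, and the 11 with no window had a median of 0.23 with 10 higher. Of all genes 49.2% were higher. The order of the medians turned between arrays, being 0.16 with the motif and 0.23 without it in replicates 1 and 2, but 0.31 with it and 0.22 without it in replicate 3. Of the genes with the motif 4 rose and 0 fell in the batch-term fit, and of the set without the motif 7 rose and 2 fell. Across all genes 3.09% rose and 2.92% fell in that fit. A match is a description of these letters and says nothing about binding in these cells.

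**Figure D4:**
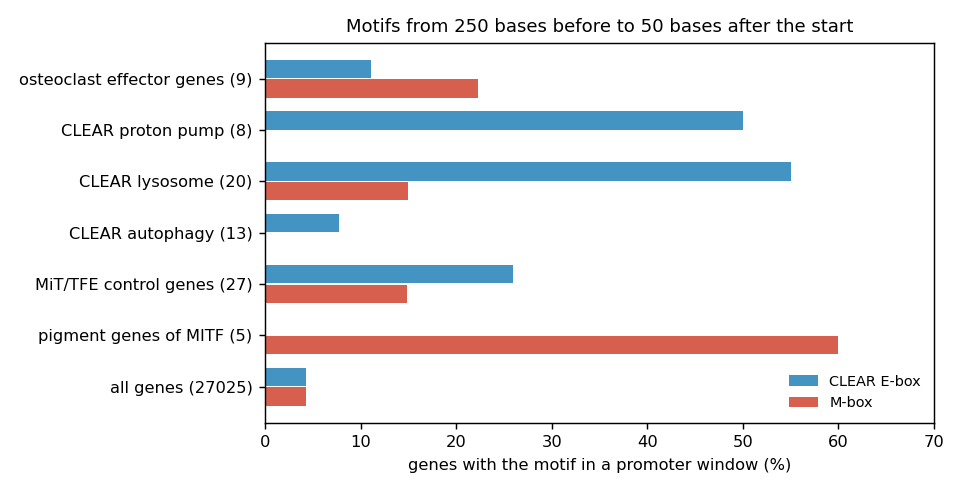
Share of genes (%) with TCACGTG (CLEAR E-box, blue) or TCATGTG (M-box, red) in a promoter window, for lists around the MiT/TFE factors, with the number of genes with a window in brackets. The lysosome and proton pump lists, whose genes are known for this element, reach 55% and 50% for TCACGTG, and all genes 4.29%.

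Pigment cell genes that MITF drives in melanocytes did not pass a test. Tyr, the tyrosinase gene whose M-box is shown above, had intensities of 42.8, 52.4 and 23.9 in low sodium and 34.8, 50.5 and 46.2 in normal sodium. Of 9 measured genes 0 rose and 0 fell in the batch-term fit, where 3.09% of all genes rose and 2.92% fell. The media separated in 0 of them, and 4 of them were at least as bright as the median probe set. Pmel, Mlana, Sox10 and Ednrb differed by -0.73, -1.10, 0.63 and 0.23 without passing. Other E-box factors of the basic helix-loop-helix zipper class showed 0 calls among 11 in the batch-term fit, with 1 at an unadjusted p under 0.05 in the plain fit, the dim Mlxipl (1.84). In 5 of them (Max, Tfap4, Srebf2, Usf2 and Mga, at -0.82, -0.65, -0.52, -0.39 and -0.35) the low-sodium arrays all lay below the normal-sodium arrays, where 9.07% of all genes did. The list median was -0.35, at -0.18 in replicates 1 and 2 and -0.45 in replicate 3.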

How the data were processed

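Total RNA of 6 RAW264.7 cultures was hybridised to Affymetrix mouse arrays after biotin labelling, per the labels' protocols. Each deposited value is a linear intensity of a probe set on an array. Per the submitters' processing notes Partek was used, and its version and the summarisation step were not given in the sources used here. Every array had a trimmed mean intensity (2 to 98 percentiles) of 500.003. Precision is limited by the number of arrays.

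Tests used log2(intensity + 1). After leaving out 64 control probe sets, 45037 were tested, of which 34945 carried 1 gene in the platform annotation, 932 several and 9160 none. Symbols were updated through the RefSeq table of GRCm38.p6. Low minus normal sodium was fitted with limma 3.58.1 in R 4.3.3 (lmFit, eBayes, two-sided, Benjamini-Hochberg over all probe sets). Only the plain fit was run on simulated arrays, without a batch and with larger changes than those of the family. That check does not cover the batch-term fit. Permutation tests used SciPy 1.17.1. A gene in a list was represented by its brightest probe set on average. Other probe sets of the same gene did not always share its sign, and this is stated for only some of the genes. The text names all family probe sets, up to 4 genes per list with the smallest p, and 3 genes of closest pattern per factor, and others named were chosen after their values were seen. The members, the 8 lists and the cell type markers were chosen with earlier results of these data known, so no p is adjusted over a list. The labels call the replicates biological without saying how cultures were separated, so p-values measure the spread between these arrays. Same-numbered arrays deviated from their group means with correlations of 0.08, 0.06 and 0.20, so the number was not taken as a pairing. Promoter windows come from RefSeq (GRCm38.p6), and the value file itself states no genome build. Alternatives are described in the closing section.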

Additional observations from a re-analysis of the deposited data

How the results depend on the processing

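Both Mitf probe sets were higher and Tfec was lower in low sodium in every alternative that could change the difference. These were a pseudocount of 16, quantile normalisation, median centring, and subsets of arrays (replicates 1 and 2 alone, replicate 3 alone, each array removed). Batch or replicate terms, the choice of prior and the brighter 50% of probe sets could not change the difference, only its error and p. Leaving out 1 array gave 0.52 to 0.69 for Mitf 1455214_at, 0.22 to 0.94 for Mitf 1422025_at (the lowest without low-sodium replicate 3, the highest without low-sodium replicate 2) and -0.31 to -0.22 for Tfec. Tfe3 ranged from -0.33 to 0.021 and was above 0 only without low-sodium replicate 3, and Tfeb ranged from -0.091 to 0.28, below 0 without low-sodium replicate 1 or 2 or normal-sodium replicate 3 (-0.033, -0.091 and -0.087), and was -0.13 in replicate 3 alone. The cause was not tested.

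The number of calls depended on the variance model. In place of 0 probe sets, 0 family probe sets and 0 list genes, the batch term with a trended prior called 1840, 1 and 29, replicates 1 and 2 with a trended prior (added after seeing the data) 3714, 1 and 47, and the trended prior without a block 33, 0 and 1. List genes here include the cell type markers. With the constant prior replicates 1 and 2 gave 0 calls and an adjusted p of 0.377 for Mitf 1455214_at. Of the 29 list genes, 9 moved by over 1.5 times without 1 of the arrays (chosen after seeing the data), among them Npc2, Tpp1 and Atp6v0d1 (0.02, 0.10 and 0.13 without low-sodium replicate 3). These removals had no batch term and kept normal-sodium replicate 3. Within batches the same 3 genes differed by 0.28, 0.28 and 0.29 in replicates 1 and 2 and by 0.43, 0.53 and 0.36 in replicate 3. Such a move can therefore hold the offset of the replicate 3 arrays. A pseudocount of 16 called 1 probe set and the brighter 50% of probe sets 2. With the replicate number as a block 0 probe sets were called, and the Mitf 1455214_at difference of 0.59 had an adjusted p of 0.583. The adjusted p of Mitf 1455214_at spanned 0.0165 to 0.974 over its alternatives. Leaving out 1 array gave 0 calls in the plain fit each time. With 1 array per medium in replicate 3, a response of its own there cannot be told apart from array variation.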
